A study of Mus musculus with 6 samples.

Results

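The expression of 5 neighbouring genes of the mouse chromosome 11 chemokine cluster, Ccl2, Ccl7, Ccl5, Ccl9 and Ccl6, was followed across control and hPARG cells. They were chosen by name from the 41819 genes of the deposited table, and the choice was made on the difference between the groups, with Ccl2, Ccl7 and Ccl5 set against Ccl9 and Ccl6. All 5 genes were found in the table and all 5 passed the filter on low counts, which left 11509 genes. Since the contrast between hPARG and control cells chose these genes, their values in that contrast are given as a description and without a test.

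The RNA came from one clone of mouse 3T3 fibroblasts, an immortal line from mouse embryos, carrying a lentiviral cassette from which doxycycline (DOX) switches on human PARG and, as a separate protein, a green fluorescent marker. PARG (poly(ADP-ribose) glycohydrolase) is the enzyme that degrades poly(ADP-ribose), and the study asked how its ectopic expression alters gene expression. The 3 hPARG samples received 500 ng/ml doxycycline for 72 h and the 3 control samples were the same clone with the cassette and 0 ng/ml. No cells without the cassette were given doxycycline among these RNA samples, so doxycycline and hPARG cannot be told apart here. The paper's supplement describes qPCR of selected genes in doxycycline-treated cells lacking the cassette, which lies outside these samples and was not used. The labels describe the samples as wells of a plate and the study's methods as dishes of the same clone, so the spread between samples measures culture and library preparation and not separate clones.

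CC chemokines are small secreted proteins that attract leukocytes, and their name comes from a pair of adjacent cysteines near the amino end of the mature protein. Ccl2 and Ccl7 are known as ligands of Ccr2 that draw monocytes out of the blood, and Ccl5 as an attractant of T cells, eosinophils and monocytes. Ccl9 and Ccl6 are rodent chemokines that signal through Ccr1 on myeloid cells. In fibroblasts the genes for Ccl2, Ccl7 and Ccl5 are textbook targets of NF-kB, a transcription factor of inflammatory signalling.

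The stretch of coding sequence that gives the family its name is shown for each gene, since it is what the 5 genes share and where their exons can be compared. The coding strand is given 5′ to 3′ (GENCODE M21 transcripts, GRCm38), and the capitals mark the codons of the adjacent cysteines.
Ccl2, chr11:82036491-82036526, + strand: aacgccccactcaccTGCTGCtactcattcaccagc
Ccl7, chr11:82046523-82046558, + strand: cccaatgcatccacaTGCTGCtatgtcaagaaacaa
Ccl5, chr11:83529227-83529262, − strand: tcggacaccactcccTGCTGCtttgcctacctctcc
Ccl9, chr11:83575911-83575946, − strand: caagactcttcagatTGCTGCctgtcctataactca
Ccl6, chr11:83589371-83589406, − strand: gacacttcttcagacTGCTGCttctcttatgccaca
The same codon was used for both cysteines in all 5 genes. In Ccl2, Ccl7 and Ccl5 the pair lies in exon 2 of 3, whereas in Ccl9 and Ccl6 it lies in exon 3 of 4. Translated from the annotation, the precursor proteins had 148 (Ccl2), 97 (Ccl7), 91 (Ccl5), 122 (Ccl9) and 116 (Ccl6) residues. Ccl9 and Ccl6 were the most alike, with 56.2% identity over 112 aligned residues, followed by Ccl2 and Ccl7 with 50.5% over 97. The other 8 pairs shared between 27.8% and 40.0%. No stretch of 100 bases in any transcript of the 5 genes occurred in a transcript of another gene, and none of their exons overlapped an exon of another gene.

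Ccl2 (ENSMUSG00000035385) lies at chr11:82035571-82037453 and Ccl7 (ENSMUSG00000035373) at chr11:82045712-82047525, both on the + strand with 8.26 kb between them. Ccl5 (ENSMUSG00000035042, chr11:83525778-83530518), Ccl9 (ENSMUSG00000019122, chr11:83572919-83578636) and Ccl6 (ENSMUSG00000018927, chr11:83587882-83593087) lie on the − strand, with 42.4 kb between Ccl5 and Ccl9 and 9.24 kb between Ccl9 and Ccl6. In coordinates, Ccl5 begins 1490 kb beyond the beginning of Ccl2, so Ccl2 and Ccl7 lie far from the other 3 genes, while Ccl5 and Ccl9 are neighbours.

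Between 21619908 and 25263818 counts per sample were assigned to genes. Levels are given in CPM, counts scaled to TMM-normalized library size. The floor of detection was set at 3 counts, which equals 0.119 to 0.139 CPM depending on the sample and takes account of counting error alone. Of 10 fibroblast markers, 9 were above the floor in every sample, with summed levels of 7216 to 8400 CPM in control and 8306 to 9534 CPM in hPARG samples. The 12 macrophage and leukocyte markers summed to between 14.3 and 19.6 CPM in control and between 11.3 and 18.7 CPM in hPARG samples. The leukocyte-defining Adgre1 and Cd3e were at 0 counts in every sample, and Cd14 was the highest of that list with a mean of 8.75 CPM. Endothelial markers summed to at most 1.37 CPM and epithelial markers to at most 1.04 CPM in any sample. The table holds mouse genes, so the human cassette could not be checked in it, and the mouse Parg gene differed by 0.04 on the log2 scale (SE 0.112) between hPARG and control samples.

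Ccl2 in hPARG cells was at 31.7% of its control level. In CPM, Ccl2 was at 228, 188 and 288 in control samples 1 to 3 and at 79.6, 54.8 and 89.1 in hPARG samples 1 to 3. All hPARG samples were far below all control samples, and in both groups sample 2 was the lowest and sample 3 the highest. The log2 fold change of hPARG over control was -1.66 (SE 0.218), with group means of 235 ± 50.1 and 74.5 ± 17.7 CPM (SD, n = 3). These values rest on at least 1329 counts per sample. In bulk RNA, fewer cells with the transcript and less of it per cell cannot be told apart.

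Ccl7, the neighbour of Ccl2 and its partner at Ccr2, had the largest difference of the 5 genes. Its level was 40.2, 28.5 and 50.1 CPM in control samples 1 to 3 and 11, 6.26 and 12.1 CPM in hPARG samples 1 to 3. The groups did not overlap, and sample 2 was again the lowest and sample 3 the highest of each group. The log2 fold change was -2.02 (SE 0.285), which left 24.7% of the control level.

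Ccl5, the T-cell attractant, was at 20.8, 20.2 and 23.9 CPM in control samples 1 to 3 and at 12.1, 9.03 and 10.4 CPM in hPARG samples 1 to 3. The groups did not overlap here either, and the gap was smaller than for Ccl2 and Ccl7. The log2 fold change was -1.05 (SE 0.139), or 48.4% of the control level. Of the 3 genes set on the responsive side, Ccl5 thus had the smallest difference and the smallest spread between samples.

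Ccl9, the myeloid chemokine that lies next to Ccl5, was as abundant in reads as Ccl2 in control cells and stood at a like level in both groups. It was at 257, 228 and 301 CPM in control samples 1 to 3 and at 275, 200 and 282 CPM in hPARG samples 1 to 3. The ranges of the groups overlapped, and sample 2 was the lowest in each. However, hPARG sample 2 lay below all control samples, and control sample 3 lay above all hPARG samples. The log2 fold change was -0.05 (SE 0.163), and 2 standard errors on each side ran from -0.38 to 0.27. With a minimum of 4864 counts, depth did not limit this value, and the spread between samples did.

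Ccl6, the other Ccr1 ligand of the pair, was barely expressed, so little could be said of whether it stayed level. It had 36, 29 and 39 counts in control samples 1 to 3, or 1.41, 1.25 and 1.84 CPM. In hPARG samples 1 to 3 it had 17, 24 and 30 counts, or 0.779, 0.989 and 1.38 CPM. The highest hPARG sample lay above the lowest control sample, so the groups overlapped, but only by that one sample. The log2 fold change was -0.51 (SE 0.309), and 2 standard errors on each side ran from -1.13 to 0.11, a range that holds both 0 and the value found for Ccl5. At this depth Ccl6 can therefore be placed neither with Ccl9 nor with Ccl5.

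**Figure D1:**
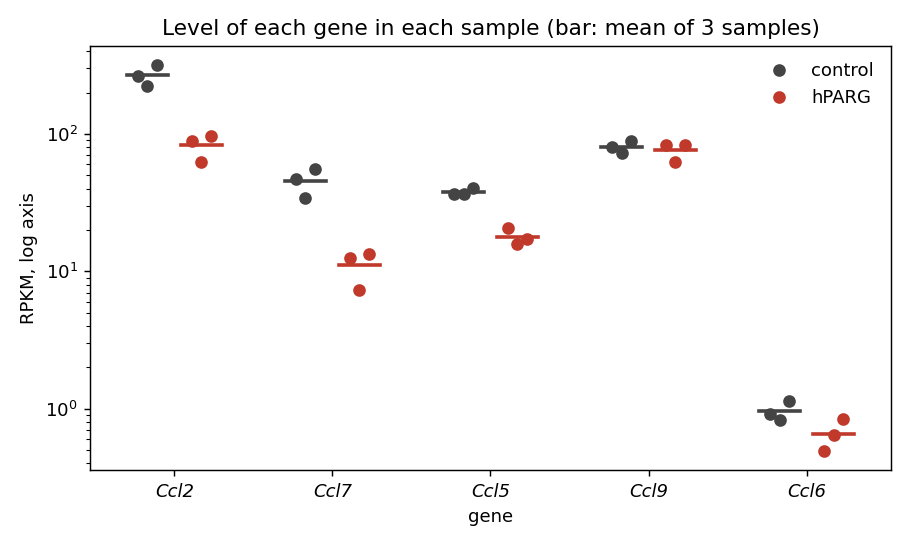
Level of Ccl2, Ccl7, Ccl5, Ccl9 and Ccl6 in RPKM (log axis) in each of 3 control (grey) and 3 hPARG (red) samples, with a bar at the mean of each group. The red points of Ccl2, Ccl7 and Ccl5 all sit below the grey ones. Those of Ccl9 run from 62.0 to 83.1 and the grey ones from 72.6 to 89.4, with the lowest red point below all grey ones. Ccl6 lies near 1 with overlapping groups.

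In CPM, all hPARG samples were below all control samples for 3 of the 5 genes and above them for 0 of 5. Over all tested genes these shares were 6.00% (691 genes) and 3.61% (416 genes), and nothing can be read from the comparison because the contrast chose the 5 genes. Genes were called by edgeR's quasi-likelihood test at an FDR under 0.05 with a difference of more than 2-fold. By this rule 10 of 11509 genes were called (0.0869%), of which 9 were lower in hPARG cells (0.0782%), and the median log2 fold change of all tested genes was 0.00. Without hPARG sample 1 the count was 3, and without hPARG sample 3 it was 5. None of the 5 genes was among the 10 in this fit, a count that changed with the fit and is no evidence for or against a difference, again because the contrast chose them. DESeq2 called 22 genes in all. Ordered from the lowest log2 fold change, Ccl7 stood at place 12, Ccl2 at place 14, Ccl5 at place 37, Ccl6 at place 175 and Ccl9 at place 3827 of 11509.

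**Figure D2:**
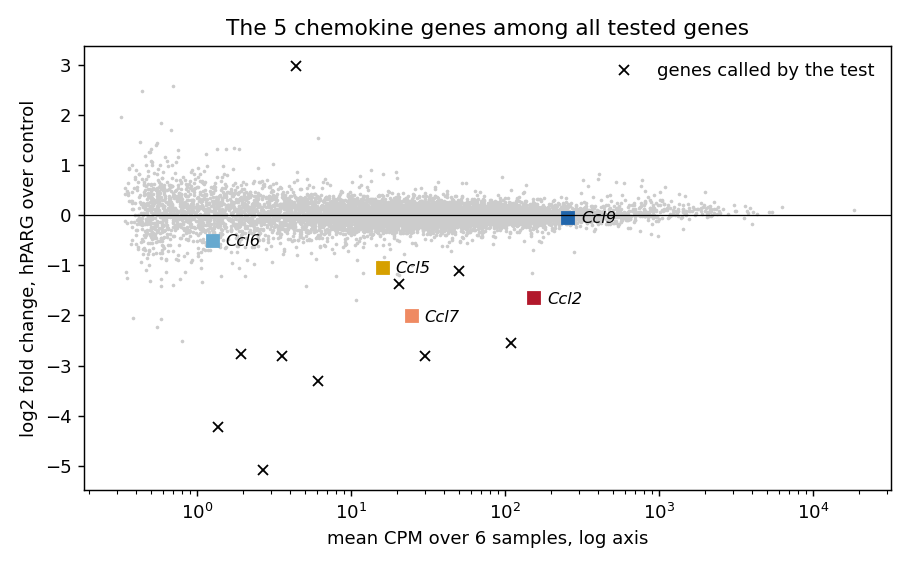
Log2 fold change of hPARG over control against mean CPM over 6 samples (log axis) for 11509 tested genes (grey dots), with the 10 called genes as crosses and the 5 chemokine genes as coloured squares. Ccl2 and Ccl7 lie far below the body of dots, Ccl5 lies below it at -1.05, Ccl6 lies within the wide scatter of low genes and Ccl9 on the zero line.

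Levels between genes were compared per length, in the deposited RPKM. In control cells Ccl2 had the highest mean (267 ± 47.5 RPKM), followed by Ccl9 (80.7 ± 8.43), Ccl7 (45.6 ± 10.9), Ccl5 (37.7 ± 2.13) and Ccl6 (0.960 ± 0.161, SD, n = 3). The samples of Ccl7 and Ccl5 overlapped, so these neighbours in the order did not differ beyond their spread, while the other steps did not overlap. In hPARG cells Ccl2 (82.8 ± 17.9) and Ccl9 (76.0 ± 12.1) overlapped, and Ccl5 (17.9 ± 2.49), Ccl7 (11 ± 3.28) and Ccl6 (0.658 ± 0.176) followed without overlap between neighbours. The order depended on the length used. With CPM divided by the length of all annotated exons, Ccl9 (82.9) stood above Ccl2 (65.5) and Ccl7 (12.2) above Ccl5 (10.9) in hPARG cells, with overlapping samples in both pairs, and Ccl7 and Ccl5 no longer overlapped in control cells.

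Together the 23 CC ligand genes of the table summed to 440, 381 and 520 RPKM in control samples 1 to 3 and to 214, 155 and 220 RPKM in hPARG samples 1 to 3. Of this CC ligand sum, which leaves out CXC chemokines, Ccl2 was the largest part in control cells, and Ccl2 and Ccl9 held about equal parts in hPARG cells. Ccl2 made up 59.6%, 58.1% and 60.8% of the sum in control samples and 41.6%, 40.5% and 44.0% in hPARG samples. Ccl9 made up 18.2%, 19.0% and 17.2% in control and 38.8%, 40.1% and 37.7% in hPARG samples, although its own level stayed near 80.7 and 76.0 RPKM. Ccl7 went from a mean of 10.1% to 5.54%, and Ccl6 held at most 0.413% in any sample. The share of Ccl5 was 8.52% ± 0.933 in control and 9.21% ± 1.23 in hPARG samples, with overlap, since Ccl5 and the sum were lower by similar factors. A share of a sum moves with the other genes in it, so these values describe the mix and add nothing to the levels. The mix also depends on the length used. By CPM per kb of exon, Ccl9 (82.9) stood above Ccl2 (65.5) in hPARG cells, with overlapping samples.

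**Figure D3:**
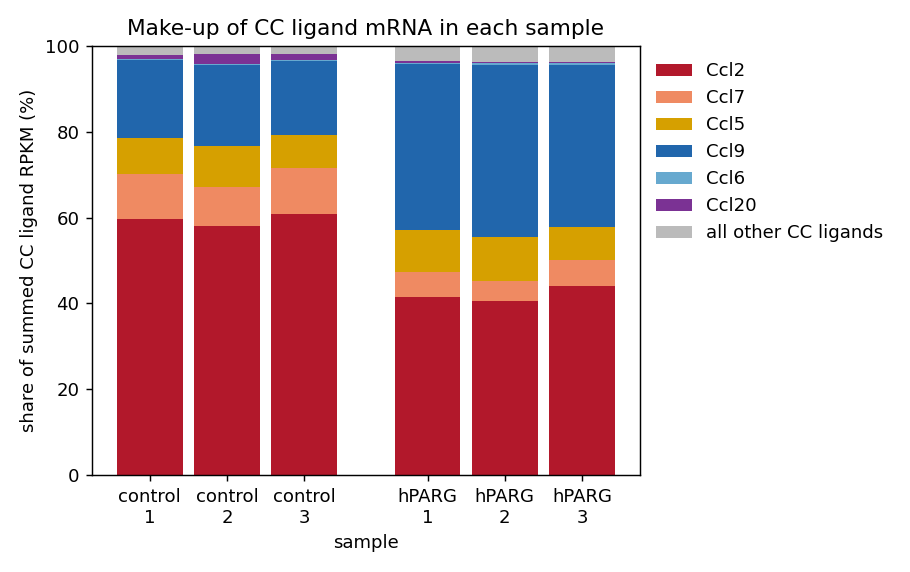
Share of each CC ligand in the summed RPKM of 23 CC ligand genes, one stacked bar per sample. The Ccl9 part (dark blue) covers 17.2% to 19.0% of the control bars and 37.7% to 40.1% of the hPARG bars, while the Ccl2 part (dark red) covers 58.1% to 60.8% and 40.5% to 44.0%.

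Ratios between 2 of the genes within a sample remove what the genes share. The ratio of Ccl2 to Ccl9 was 3.28, 3.05 and 3.53 in control samples 1 to 3 and 1.07, 1.01 and 1.17 in hPARG samples 1 to 3 (RPKM ratios). These values lay closer together within a group than the levels did, with an SD of 0.11 (control) and 0.10 (hPARG) on the log2 scale. The within-group SD for the level of Ccl2 was 0.338. That SD is of log2 CPM and pooled over both groups, a measure unlike that of the RPKM ratios. The ratio of Ccl5 to Ccl9 was 0.457, 0.501 and 0.449 in control and 0.248, 0.254 and 0.208 in hPARG samples, a log2 difference of -0.99. The ratio of Ccl7 to Ccl2 was 0.179, 0.154 and 0.177 in control and 0.141, 0.116 and 0.137 in hPARG samples. Its log2 difference was -0.37 with no overlap, so Ccl7 was lower relative to its neighbour Ccl2 in every hPARG sample than in any control sample. The ratio of Ccl6 to Ccl9 was 0.0114, 0.0114 and 0.0128 in control and 0.00592, 0.0103 and 0.0102 in hPARG samples. The groups of this ratio did not overlap, with a log2 difference of -0.47. It rested largely on hPARG sample 1 with its 17 counts of Ccl6, since without that sample the difference was -0.21.

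The samples of a group varied together in most of these genes. As deviations from the group mean in log2 CPM, control sample 2 and hPARG sample 2 were at -0.30 and -0.41 for Ccl2, at -0.43 and -0.58 for Ccl7, and at -0.19 and -0.32 for Ccl9. For Ccl5 they were at -0.09 and -0.20, and for Ccl6 at -0.23 and -0.04. Ccl2, Ccl7 and Ccl9 thus dipped in the same samples, whatever their difference between the groups. The Pearson correlation of these deviations over 6 samples was 0.99 for each pair among Ccl2, Ccl7 and Ccl9, between 0.79 and 0.86 for Ccl5 with each of them, and between 0.00 and 0.56 for Ccl6 with the other 4 genes. The points share their libraries and have 4 degrees of freedom, and such values were common in this table. Of the other 11508 tested genes, 16.8% had a correlation over 0.9 with Ccl9, 16.9% with Ccl2, 18.3% with Ccl7, 5.64% with Ccl5 and 0.982% with Ccl6. The samples numbered 2 also stood apart by transcript length. Their median deviation was -0.24 (control) and -0.25 (hPARG) over the tested genes in the shortest 10% by exon length, and 0.25 and 0.24 over the longest 10%. Ccl2, Ccl7, Ccl5 and Ccl6 have exon lengths between 801 and 1795 bases and belong to the shortest 10%, while Ccl9 has 3045 bases. The part of this length pattern in the shared dip was not tested.

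Within-group SDs were 0.461 for Ccl7, 0.338 for Ccl2, 0.330 for Ccl6, 0.240 for Ccl9 and 0.172 for Ccl5 on the log2 scale, beside a median of 0.188 over the tested genes. Ccl7 was more variable between samples of a group than 93.4% of the tested genes and Ccl5 more than 44.5%.

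**Figure D4:**
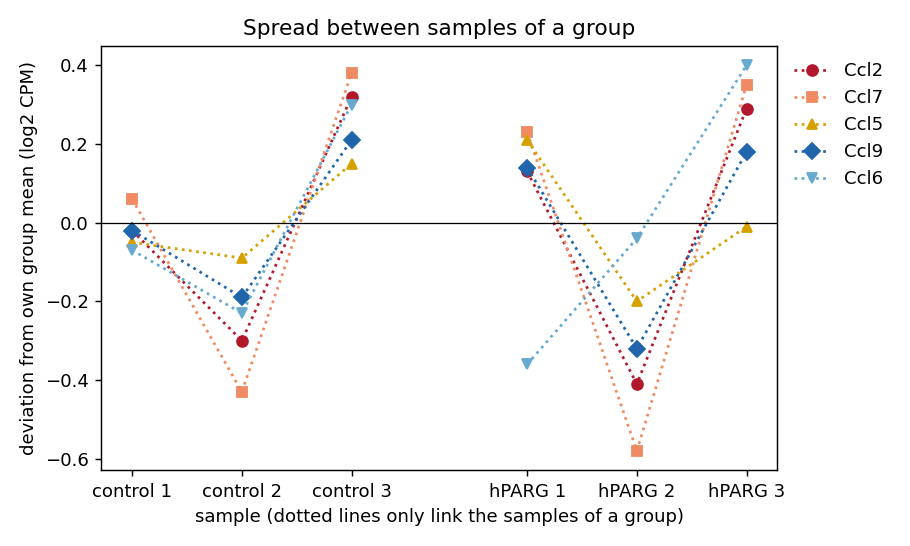
Deviation of each gene from its own group mean (log2 CPM) in each sample, with dotted lines that only link the samples of a group. Ccl2, Ccl7 and Ccl9 run in parallel with their lowest point in sample 2 of both groups, down to -0.58 for Ccl7, and Ccl6 departs from them in hPARG sample 1 at -0.36.

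The tested genes whose log2 CPM followed each gene most closely over the 6 samples were listed by Pearson's r, as a description that takes in the difference between groups for Ccl2, Ccl7 and Ccl5. For Ccl2 they were Ccl7 (r = 0.998), the scramblase family gene Plscr2 (0.991) and the integrin chain Itgb2 (0.990). For Ccl7 they were Ccl2 (0.998), Plscr2 (0.990) and the splicing factor Syf2 (0.988). Ccl2 and Ccl7 were thus each the nearest gene to the other among 11508. For Ccl5 they were the membrane protein gene Tmem176b (0.993), the antiproliferative gene Btg1 (0.992) and the ATP synthase assembly factor Atpaf2 (0.992), with Ccl2 at place 19 and Ccl7 at place 24. For Ccl9 they were Nudcd2 (0.999), the mRNA decapping activator subunit Lsm1 (0.997) and the succinate dehydrogenase assembly factor Sdhaf1 (0.996). All 3 had log2 fold changes between -0.06 and -0.05, and Ccl2 stood at place 3986 in the list of Ccl9. For Ccl6 they were the homeobox repressor Tgif1 (0.985), Hmcn2 (0.984) and Zscan12 (0.965), with Ccl9 at place 1918.

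The tested genes around the 5 chemokine genes mostly had log2 fold changes near 0. Within 1000000 bases of the outermost of them the annotation lists 75 other genes, of which 20 passed the filter, and edgeR's test called 0 of 20, beside 0.0869% of all tested genes, with 0 at an unadjusted p under 0.05, beside 455 of 11509. At these shares a count of 0 among 20 is no result about the neighbourhood. DESeq2 called 0 of the 38 it fitted without the filter. The log2 fold changes of the 20 ran from -1.28 to 0.22 with a median of -0.04, beside 0.00 over all tested genes, and the value of -1.28 (SE 0.575) belonged to Slfn2, singled out after its value was seen, a low gene at 1.10 ± 0.509 CPM in control. The nearest tested gene before Ccl2 was Tmem98, 1214 kb away, at 16.8 ± 0.543 CPM in control and 13.6 ± 1.65 in hPARG samples. Its log2 fold change was -0.31 (SE 0.120, FDR = 0.999, edgeR). All hPARG samples of Tmem98 were below all control samples, as for 6.00% of all tested genes. After Ccl7 it was Zfp830, 717 kb away, with a log2 fold change of -0.03 (SE 0.114). Before Ccl5 it was Taf15, which encodes an RNA-binding protein of the FET family, 19.0 kb away, with a log2 fold change of 0.22 (SE 0.145, FDR = 0.999, edgeR). After Ccl6 it was Heatr6, 161 kb away, with 0.05 (SE 0.148). Ccl5 thus lay between 2 tested genes, Taf15 and Ccl9, whose log2 fold changes were 0.22 and -0.05.

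**Figure D5:**
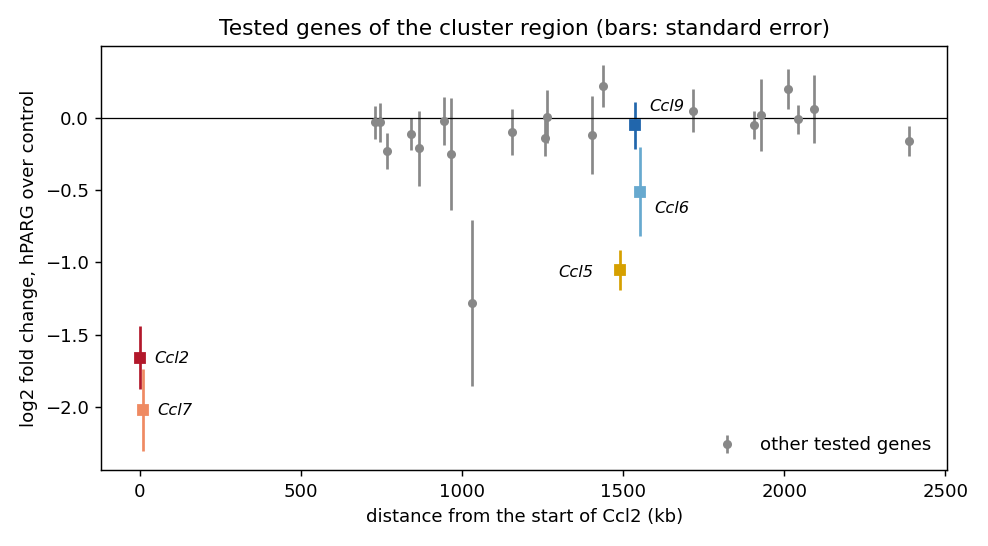
Log2 fold change of hPARG over control with its standard error for the tested genes around the cluster, against distance from the start of Ccl2 in kb. Ccl2 and Ccl7 stand alone at the left at -1.66 and -2.02, Ccl5 lies at -1.05 between grey genes near 0 and Ccl9 at -0.05, and the grey point at -1.28 is Slfn2.

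The other 6 CC ligand genes of the cluster, Ccl1, Ccl3, Ccl4, Ccl8, Ccl11 and Ccl12, were too low to test, with at most 8 counts in any sample. Ccl12 was at 0 counts in every sample, which allows a level of up to 0.139 CPM. Ccl8 had 6, 6 and 5 counts in control and 3, 3 and 3 in hPARG samples, and Ccl4 had 8, 6 and 6 in control and 2, 0 and 7 in hPARG samples. Differences of this size were not resolved at this depth. The CC ligand genes of the cluster that passed the filter were thus Ccl2, Ccl7, Ccl5 and Ccl9, and Ccl6 at a far lower level.

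Of the 35 other CC ligands and receptors listed, 33 were in the table and 4 passed the filter, and edgeR called 1 of 4, beside 0.0869% of all tested genes. This was Ccl20, the ligand of Ccr6, which is encoded outside the cluster. It was at 7.22, 13.1 and 13.0 CPM in control samples 1 to 3 and at 1.05, 1.03 and 1.28 CPM in hPARG samples 1 to 3, with no overlap. The log2 fold change was -3.30 (SE 0.287, FDR = 0.00853, edgeR), a call that was lost when hPARG sample 1 or hPARG sample 3 was left out. The other 3 were not called, each with an FDR of 0.999 in edgeR. Ccl17, a ligand of Ccr4, was at 0.951 ± 0.203 CPM in control and 0.552 ± 0.163 in hPARG samples. Its log2 fold change was -0.79 (SE 0.357) at 9 to 29 counts per sample. The groups of Ccl17 did not overlap, with hPARG samples below, as for 6.00% of all tested genes. Ccl25, the thymus and gut chemokine, was at 8.69 ± 1.13 and 8.01 ± 1.65 CPM, and Ccl27a at 3.95 ± 1.01 and 4.59 ± 0.658 CPM. Both had overlapping groups, with log2 fold changes of -0.12 (SE 0.185) for Ccl25 and 0.22 (SE 0.221) for Ccl27a. None of the 12 CC receptor genes and of the 3 atypical receptors that bind CC ligands passed the filter, with at most 9 counts in any sample, so the genes for the receptors of Ccl2, Ccl7, Ccl5, Ccl9 and Ccl6 were near the floor in these fibroblasts.

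Of 26 genes for transcription factors known for Ccl2 and Ccl5, RNA-binding proteins of chemokine mRNA decay and proteases that cut CC chemokines, 22 passed the filter and edgeR called 0, beside 0.0869% of all tested genes, so that a count of 0 among 22 is no result about these genes. An unadjusted p under 0.05 was found for 8 of the 22, beside 455 of 11509 over all tested genes. The 13 transcription factors, NF-kB subunits among them, had log2 fold changes from -0.60 to 0.90 with a median of -0.33, beside 0.00 over all tested genes. Those outside the call rule that are named next were chosen after their values were seen. Relb, an NF-kB subunit, was at 32.0 ± 4.03 CPM in control and 21.1 ± 2.79 in hPARG samples (log2 fold change -0.60, SE 0.141, FDR = 0.567, edgeR). Fos, an AP-1 subunit, had the value of 0.90 at a level of 0.643 ± 0.151 CPM in control. Zc3h12a encodes Regnase-1, an endonuclease that degrades cytokine mRNAs, and was at 16.6 ± 1.41 CPM in control and 7.46 ± 1.36 in hPARG samples (log2 fold change -1.15, SE 0.154, FDR = 0.0620, edgeR). It was the 1 gene of these lists that DESeq2 called, and edgeR called it when hPARG sample 2 was left out. The other 5 RNA-binding protein genes, with Zfp36, the gene of tristetraprolin, and Elavl1 among them, had log2 fold changes between -0.17 and 0.03. Among the proteases, Mmp2 had the lowest value (-1.31, SE 0.393) at 0.707 ± 0.217 CPM in control and 0.280 ± 0.00771 in hPARG samples, with an FDR of 0.894 in edgeR. It had 12 to 20 counts per control sample and 6 to 7 per hPARG sample, so it passed the filter through its control samples.

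Promoter windows from RefSeq (250 bases before to 50 after the annotated start, GRCm38.p6) matched Ccl9 and Ccl6, 2 of the 5 genes, and the promoters of Ccl2, Ccl7 and Ccl5 were not analysed here. The 250 bases before the start of each are shown 5′ to 3′ on the gene's strand, since the 2 genes are the most alike in protein and yet far apart in level. Capitals mark letters that match a kB motif (GGGNNNNNCC), an AP-1 motif (TGANTCA), a C/EBP motif (TTGCNNAA) or a TATA box (TATAAA) on either strand.
Ccl9, chr11:83578637-83578886, − strand: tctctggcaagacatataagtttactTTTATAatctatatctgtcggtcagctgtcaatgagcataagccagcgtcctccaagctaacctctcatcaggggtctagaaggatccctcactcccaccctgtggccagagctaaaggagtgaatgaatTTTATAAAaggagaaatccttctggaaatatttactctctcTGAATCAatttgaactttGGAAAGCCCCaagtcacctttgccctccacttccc
Ccl6, chr11:83593088-83593337, − strand: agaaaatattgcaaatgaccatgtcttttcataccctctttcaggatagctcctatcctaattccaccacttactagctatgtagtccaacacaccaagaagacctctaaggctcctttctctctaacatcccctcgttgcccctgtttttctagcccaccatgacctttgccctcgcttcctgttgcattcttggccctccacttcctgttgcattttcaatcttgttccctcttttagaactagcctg
The Ccl9 window held a kB match 35 bases before the start on the opposite strand, which also met the stricter kB consensus, an AP-1 match 53 bases before it, and TATAAA at 3 places of which 2 overlap. The Ccl6 window held no match to these motifs, nor to the interferon-stimulated response element core or the GC box (GGGCGG). Over 32851 windows of the same length, 50.8% held the looser kB motif, 4.51% the stricter one, 7.81% the AP-1 motif, 13.6% TATAAA, 10.8% the C/EBP motif, 3.44% the interferon-stimulated response element core and 35.7% the GC box. A match is a string of letters and not a site, and the absence of one says only that these letters are not in the window.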

How the data were processed

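Poly(A) libraries of 3 control and 3 hPARG samples gave 150 bp paired-end reads. With CLC Genomics Workbench 12.0 the authors aligned them to GRCm38 (genes of Ensembl 96) and deposited raw counts for each gene. RPKM values, which the authors deposited beside them, scale counts by length and by a total that the methods do not state. They were used for levels per length, ratios and shares. The paper's methods do not say whether counting used strand. Deposited columns with fold changes and p-values of the authors' own comparison were not used.

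Counts were filtered (filterByExpr, minimum count 10), normalized by TMM and fitted across all genes with edgeR 4.0.16 (quasi-likelihood, two-sided, no block; R 4.3.3), with Benjamini-Hochberg FDR over 11509 genes. Standard errors were derived from the log2 fold change and the F statistic (its size over the root of F). Log2 CPM used a prior count of 2. Motifs, alignments (global, BLOSUM62) and transcripts were handled with Biopython 1.88. An exact permutation test of 3 against 3 samples cannot give a p under 0.1 and was not run.

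The 5 genes, the gene lists and the rule for named genes were chosen with earlier results of these data known. Named were the 5 genes, every other CC ligand or receptor that passed the filter, called genes of the lists and of the neighbourhood, the nearest tested gene on each side, the 3 genes with the highest r for each, and the highest leukocyte marker. Alternatives were RLE factors, library size only, no filter, DESeq2 1.42.0, a replicate block, each sample left out in turn, a smaller window, RPKM ratios and CPM per kb.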

Additional observations from a re-analysis of the deposited data

How the results depend on the processing

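The log2 fold changes of the 5 genes moved by less than the spread between samples under every alternative tried. Leaving out each sample in turn gave -1.80 to -1.48 for Ccl2, -2.21 to -1.78 for Ccl7, -1.16 to -0.95 for Ccl5, -0.14 to 0.09 for Ccl9 and -0.75 to -0.34 for Ccl6, so the sign of Ccl9 was not fixed. The difference in the log2 ratio of Ccl6 to Ccl9 ran from -0.61 to -0.21, while Ccl7 to Ccl2 gave -0.44 to -0.28, Ccl2 to Ccl9 -1.66 to -1.55 and Ccl5 to Ccl9 -1.05 to -0.90. The count of called genes was 10, and it was 16 without a filter, 22 with DESeq2 and 3 to 13 when a sample was left out, with 3 without hPARG sample 1 and 5 without hPARG sample 3. Ccl20 was the 1 other CC ligand called, and 0 were called without hPARG sample 1 or 3. Among regulators and proteases the count was 0 and became 1 (Zc3h12a) without a filter, with DESeq2 and without hPARG sample 2. No neighbour was called under any alternative, the window of 500000 bases among them. Per kb of exon, Ccl2 in control was at 206 CPM in place of 267 RPKM, and Ccl5 at 22.5 and 10.9 CPM in place of 37.7 and 17.9 RPKM (control and hPARG). Ccl7 and Ccl9 in control went the other way, at 49.4 and 86.1 CPM in place of 45.6 and 80.7 RPKM. All annotated exons were counted in the length per kb, while the length and total behind the RPKM were not checked.

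By the check made, the replicate numbers did not pair all the samples. The deviations of same-numbered samples correlated at 0.096, 0.61 and 0.168. Control sample 1 correlated best with hPARG sample 3 (0.207), and control sample 3 with hPARG sample 1 (0.335). The samples numbered 2 correlated with each other (0.61) and negatively with the other-numbered samples of the other group (-0.441 to -0.23). Whether the samples numbered 2 shared a factor was not tested. With the replicate block, 23 genes were called, 1 of the regulators and proteases, 1 other CC ligand and 0 neighbours, and the standard error fell from 0.218 to 0.0618 for Ccl2 and from 0.285 to 0.0880 for Ccl7. Of the 5 genes, which the contrast chose, 0 met the call rule in the fit reported and with RLE factors, 3 did with the replicate block, DESeq2, library size only or no filter, and 0 to 2 when a sample was left out. With the block the log2 fold changes were -1.66 (Ccl2), -2.02 (Ccl7), -1.05 (Ccl5), -0.06 (Ccl9) and -0.52 (Ccl6). Precision was limited by 3 samples per group from 1 clone, and for Ccl6 by 17 to 39 counts per sample.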
